A study of Mus musculus with 4 samples.

Results

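The GABA-A receptor subunits described here are 7 genes, taken by name from a list and measured in the hypothalamus of mice: Gabra2, Gabra3, Gabra4 and Gabra5 of the alpha class, Gabrb1 and Gabrb2 of the beta class, and Gabrg1 of the gamma class. These 7 genes are among 16339 genes in the deposited table. For comparison 5 other subunit genes of the family, Gabrg3, Gabrd, Gabre, Gabrq and Gabrr2, are described with them, which makes 12 subunit genes in all.

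RNA sequencing compared the hypothalamus of WT and Tas1r3-/- male C57BL/6 mice, with 2 libraries of each genotype. Both groups received the Western diet (WD), a diet with 60% fat together with a 30% sucrose solution, for 12 weeks from 8 weeks of age. Tas1r3 encodes a shared subunit of the sweet and umami taste receptors, and its knockout was carried in the whole body from conception. WT mice were littermates matched for age and for a starting weight of 23 to 25 g, and both groups of libraries are from mice on this diet. The paper reports that Tas1r3-/- mice then gained less weight on it than WT mice. The part of body weight in the results was not tested. The study asked which hypothalamic genes differ between these genotypes on the diet, and it used Gabra2 as a marker of GABAergic neurons in a qPCR assay.

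GABA-A receptors are chloride channels opened by GABA, the main inhibitory transmitter of the brain, and each receptor is a ring of subunits drawn from several classes. The alpha subunit sets much of the response to GABA and to drugs, the beta subunit shares the GABA binding site, and a gamma subunit holds many receptors at the synapse, whereas receptors with a delta subunit lie mostly outside it. In the hypothalamus GABA-A receptors restrain neurons that control feeding, hormone release and stress responses.

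The alpha genes differ at a codon that separates the receptors bound by classical benzodiazepines from those that are not, and it is shown because in 1 library Gabra4 was high while Gabra2 and Gabra5 were low, with Gabra3 within the range of the other libraries. Each line gives coding sequence of GRCm39, 5′ to 3′ on the strand of the gene, with the codon of this residue in capitals. A histidine codon (CAC) stands in Gabra2, Gabra3 and Gabra5, and an arginine codon (AGG) stands in Gabra4, whose receptors are insensitive to classical benzodiazepines.
Gabra2 (exon 5, chr5:71171833-71171871): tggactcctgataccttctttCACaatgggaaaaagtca
Gabra3 (exon 5, chrX:71544759-71544797): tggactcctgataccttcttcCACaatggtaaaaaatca
Gabra5 (exon 6, chr7:57138624-57138662): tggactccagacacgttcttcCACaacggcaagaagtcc
Gabra4 (exon 4, chr5:71798480-71798518): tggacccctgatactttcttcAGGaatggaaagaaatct

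That codon was looked up in the alpha genes only. For the beta and gamma genes part of the pore-lining segment is shown, with Gabra2 for comparison. Capitals mark codons that translate to the same residues in all 7 genes, although the bases differ between genes.
Gabra2 (exon 9, chr5:71130927-71130965): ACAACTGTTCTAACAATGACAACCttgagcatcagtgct
Gabrb1 (exon 8, chr5:72279297-72279335): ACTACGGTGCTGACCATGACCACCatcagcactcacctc
Gabrb2 (exon 9, chr11:42488373-42488411): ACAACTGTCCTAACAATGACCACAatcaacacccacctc
Gabrg1 (exon 8, chr5:70931782-70931820): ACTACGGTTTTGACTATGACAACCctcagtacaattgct

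Over whole proteins, Gabrb1 and Gabrb2 shared 80.3% of aligned residues. Gabra2 shared 73.6% with Gabra3, 73.2% with Gabra5 and 61.0% with Gabra4. Between the listed alpha and beta genes the identity ran from 35.6% to 38.6%.

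In the GENCODE M39 annotation of GRCm39, 4 of the 7 genes lie in a cluster on chromosome 5 in the order Gabrg1 (70906506 to 70999960), Gabra2 (71114573 to 71253662), Gabra4 (71721738 to 71815722) and Gabrb1 (71815456 to 72319431). The first 3 are on the minus strand and Gabrb1 is on the plus strand. The 5′ ends of Gabra4 and Gabrb1 overlap by 267 bases, where reads cannot be assigned without strand, and the use of strand in counting was not given in the sources used here. Gabra5 lies on chromosome 7 (57055164 to 57240831). Gabrb2 lies on chromosome 11 (42310493 to 42523417) and Gabra3 on chromosome X (71476275 to 71700723).

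Library totals over named genes were between 5728729 and 6180137 estimated counts, and levels are given as CPM, the count scaled to a common library size. A count of 0 allows up to 3 counts, or 0.482 to 0.526 CPM in these libraries, for counting error only. Tas1r3 itself was at 6.01 and 4.45 CPM in the WT WD libraries, against 1.12 and 1.23 CPM in Tas1r3-/- WD. WT WD replicate 2 stood apart from the other 3 libraries. The 12 hypothalamic markers summed to 20.6 CPM there, against 1207 to 1730 CPM elsewhere. All 12 were lowest in that library, and 2 of them were at 0. The 10 thalamic markers summed to 3008 CPM there, against 346 to 610 CPM elsewhere, and all 10 were highest in that library. Of the 14344 genes tested, 4966 were lowest and 4857 were highest in that library. The 3 markers of GABA neurons (Gad1, Gad2 and Slc32a1) summed to 140 CPM there, against 1088 to 1127 CPM elsewhere, whereas the 6 astrocyte markers summed to 2125 CPM there and to 2279 to 2506 CPM elsewhere. The 4 choroid plexus markers summed to 733 CPM in that library, against 37.3 to 57.7 CPM elsewhere, and Ttr alone was at 678 CPM there. Only 2 of the 4 were highest in that library. Clic6 (33.3 CPM) and Kl (12.0 CPM) lay within the range of the other libraries. Separately, 6 pituitary markers summed to 1449 CPM in Tas1r3-/- WD replicate 1, against 1.81 to 14.6 CPM in the others. Each genotype difference is therefore given with all 4 libraries and without WT WD replicate 2, and the part that these markers play in the results was not tested. In bulk tissue, fewer cells of a type and less RNA per cell cannot be told apart.

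None of the 7 subunit genes differed between the genotypes at an adjusted p under 0.05 with a fold change of at least 1.5, by edgeR's quasi-likelihood test, as for 0.0% of the 14344 genes tested. At an unadjusted p under 0.05 there was 1 of the 7, Gabrb1, against 5.38% of all genes. DESeq2 and limma-trend called 9 and 0 genes in all, with 0 of the 7 in either, and at an unadjusted p under 0.05 they gave 1 and 2 of the 7, against 2.49% of 16339 and 5.43% of 14344 genes tested. In 2 of the 7, Gabra2 and Gabrb1, both Tas1r3-/- WD libraries were above both WT WD libraries, which also held for 20.6% of all genes. In 0 of the 7 were both below, against 19.0% of all genes. The median log2 fold change of Tas1r3-/- WD over WT WD was 0.18 over the 7 genes and -0.01 over all genes tested. Without WT WD replicate 2 the same medians were 0.29 and 0.00, 0 of the 7 passed both thresholds against 0.217% of 14714 genes, and 4 of the 7 (Gabra2, Gabra4, Gabrb1 and Gabrb2) were higher in Tas1r3-/- WD at an unadjusted p under 0.05, against 8.33% of all genes. That fit has 1 WT WD library, which is assumed to vary like the Tas1r3-/- WD libraries. In the same fit the regional markers differed as well. The median log2 fold change was 1.12 over the 10 thalamic markers and -0.41 over the 12 hypothalamic markers, against 0.00 over all genes. Of the hypothalamic markers 2, Avp and Fezf1 (the latter named after its values were seen), were lower past both thresholds, and the part of these markers in the subunit differences was not tested. Without WT WD replicate 1, so that WT WD replicate 2 alone stood for the WT, 5 of the 7 passed both thresholds (Gabra2, Gabra4, Gabra5, Gabrb2 and Gabrg1), against 14.3% of 14841 genes.

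**Figure D1:**
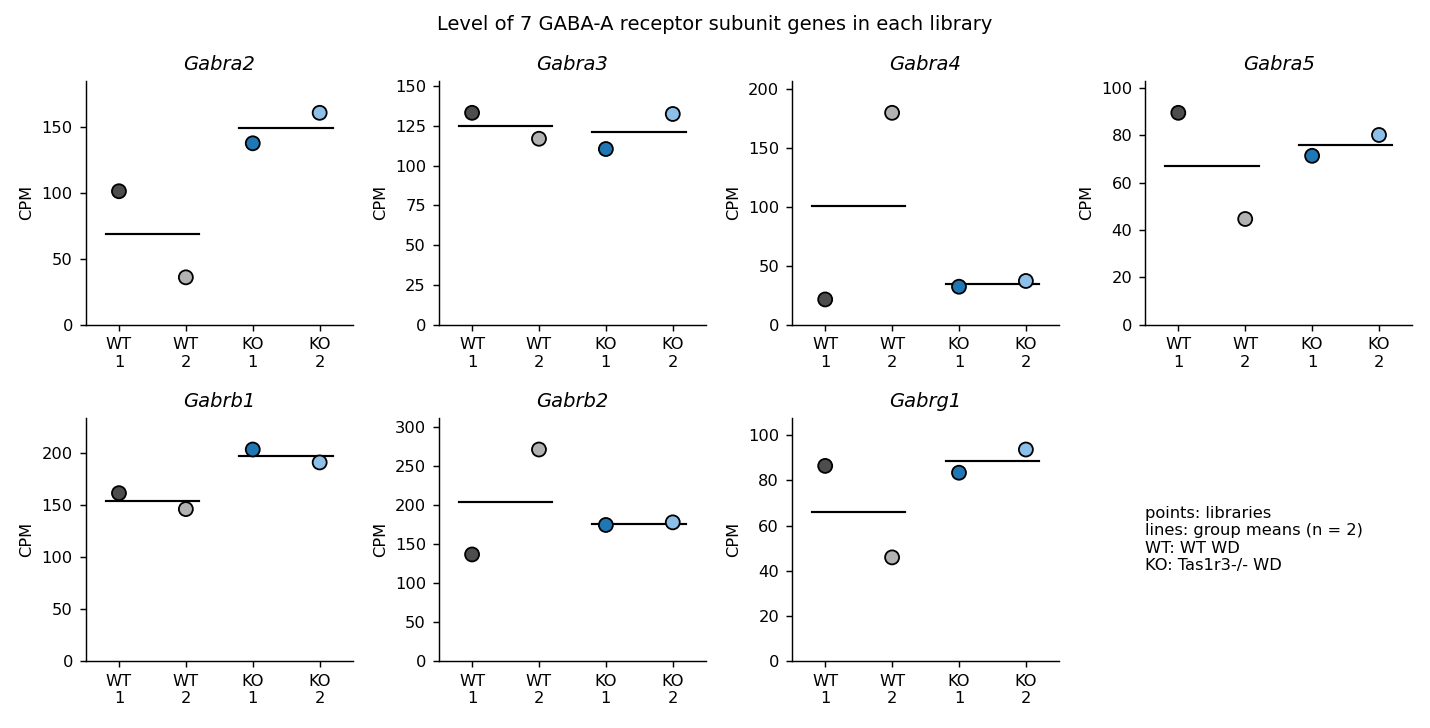
The plot shows the level in CPM (linear axis from 0) of each of the 7 subunit genes in the 4 libraries, with a line at the mean of each group (n = 2; WT, WT WD; KO, Tas1r3-/- WD). WT WD replicate 2 is the lowest library for Gabra2, Gabra5, Gabrb1 and Gabrg1, the highest for Gabra4 and Gabrb2, and lies between the others for Gabra3.

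Gabra2 encodes the alpha subunit that carries much of the anxiety-reducing action of benzodiazepines. Its level was 101.2 and 35.9 CPM in the WT WD libraries, against 137.5 and 160.6 CPM in Tas1r3-/- WD. The groups did not overlap, with the knockout higher, and WT WD replicate 1 lay nearer to Tas1r3-/- WD replicate 1 than to its own replicate. The log2 fold change was 1.12 (SE 0.49, 95% interval -0.14 to 2.39, adjusted p = 0.756 by edgeR's quasi-likelihood test). Without WT WD replicate 2 it was 0.56 (SE 0.13, 95% interval 0.27 to 0.85, unadjusted p = 0.00155, adjusted p = 0.133, edgeR), and the mean of the Tas1r3-/- WD libraries was 1.47 times the level in WT WD replicate 1. The marker sum of GABA neurons was lowest in the same library as Gabra2, at 1088 and 140 CPM in the WT WD libraries, against 1127 and 1127 CPM in Tas1r3-/- WD, and its part in the difference was not tested. The table listed a single transcript for Gabra2, NM_008066, so that no shift between transcripts could be seen.

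The qPCR primers of the study for Gabra2 fall in coding exons and are shown because they mark the stretch of the gene that assay reads. The forward primer crosses the junction of exons 2 and 3, the reverse primer lies in exon 3 at chr5:71249322-71249344, and together they bound a product of 121 bases. They are written in lower case with no part marked.
Forward: ggacccagtcaggttggtg
Reverse: tcctggtctaagccgattatcat

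Gabra3 encodes an alpha subunit found in monoamine neurons and in parts of the hypothalamus. It stood at 133 and 117 CPM in the WT WD libraries, against 110 and 132 CPM in Tas1r3-/- WD. The groups overlapped, and WT WD replicate 2 lay within the range of the other libraries, as for no other member. The log2 fold change was -0.04 (SE 0.16, 95% interval -0.45 to 0.37, adjusted p = 0.952, edgeR) and was -0.13 without WT WD replicate 2 (adjusted p = 0.695, edgeR).

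Gabra5, whose receptors lie largely outside the synapse and are best known from the hippocampus, was at 89.5 and 44.7 CPM in the WT WD libraries, against 71.3 and 80.1 CPM in Tas1r3-/- WD. Both Tas1r3-/- WD libraries fell between the WT WD libraries. The log2 fold change was 0.18 (SE 0.34, 95% interval -0.71 to 1.06, adjusted p = 0.902, edgeR), and without WT WD replicate 2 its sign turned, to -0.24 (SE 0.11, adjusted p = 0.384, edgeR).

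Gabra4 encodes an alpha subunit that pairs with delta in receptors outside the synapse and is abundant in the thalamus. Its level was 21.5 and 180 CPM in the WT WD libraries, against 32.3 and 37.2 CPM in Tas1r3-/- WD. A single library, WT WD replicate 2, was 5.94 times the mean of the other 3, and the Tas1r3-/- WD libraries lay between the WT WD libraries. The log2 fold change was -1.54 (SE 0.94, 95% interval -3.97 to 0.89, adjusted p = 0.759, edgeR), and it was -0.84 by limma-trend and -0.91 by edgeR with the replicate number as a block. Without that library it was 0.69 in the opposite direction (SE 0.18, 95% interval 0.30 to 1.09, unadjusted p = 0.00297, adjusted p = 0.173, edgeR). The thalamic marker sum took the same order as Gabra4 over the 4 libraries, at 346 and 3008 CPM in the WT WD libraries, against 409 and 610 CPM in Tas1r3-/- WD, and its part in the difference was not tested.

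Gabrb1 encodes a beta subunit expressed in neurons and in some glia. It was at 162 and 146 CPM in the WT WD libraries, against 204 and 191 CPM in Tas1r3-/- WD. The groups did not overlap, and replicates of each genotype lay closer to each other than to the other genotype. By edgeR the log2 fold change was 0.36 (SE 0.13, 95% interval 0.01 to 0.70, unadjusted p = 0.0442, adjusted p = 0.756). It was 0.29 without WT WD replicate 2 (SE 0.11, unadjusted p = 0.0294, adjusted p = 0.314, edgeR).

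Gabrb2, a beta subunit of the most common receptor type of the brain, was at 137 and 271 CPM in the WT WD libraries, against 175 and 178 CPM in Tas1r3-/- WD. The Tas1r3-/- WD libraries were close to each other and lay between the WT WD libraries. A log2 fold change of -0.21 was found (SE 0.34, 95% interval -1.08 to 0.66, adjusted p = 0.877, edgeR), which turned to 0.37 without WT WD replicate 2 (SE 0.11, unadjusted p = 0.00842, adjusted p = 0.217, edgeR).

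Gabrg1 encodes a gamma subunit of restricted expression, seen in the hypothalamus, amygdala and some glia. It was at 86.4 and 46.0 CPM in the WT WD libraries, against 83.4 and 93.6 CPM in Tas1r3-/- WD. WT WD replicate 2 was lowest, and WT WD replicate 1 lay between the Tas1r3-/- WD libraries. On the log2 scale the fold change was 0.42 (SE 0.31, 95% interval -0.40 to 1.24, adjusted p = 0.770, edgeR) and 0.03 without WT WD replicate 2 (95% interval -0.22 to 0.29, adjusted p = 0.925, edgeR).

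**Figure D2:**
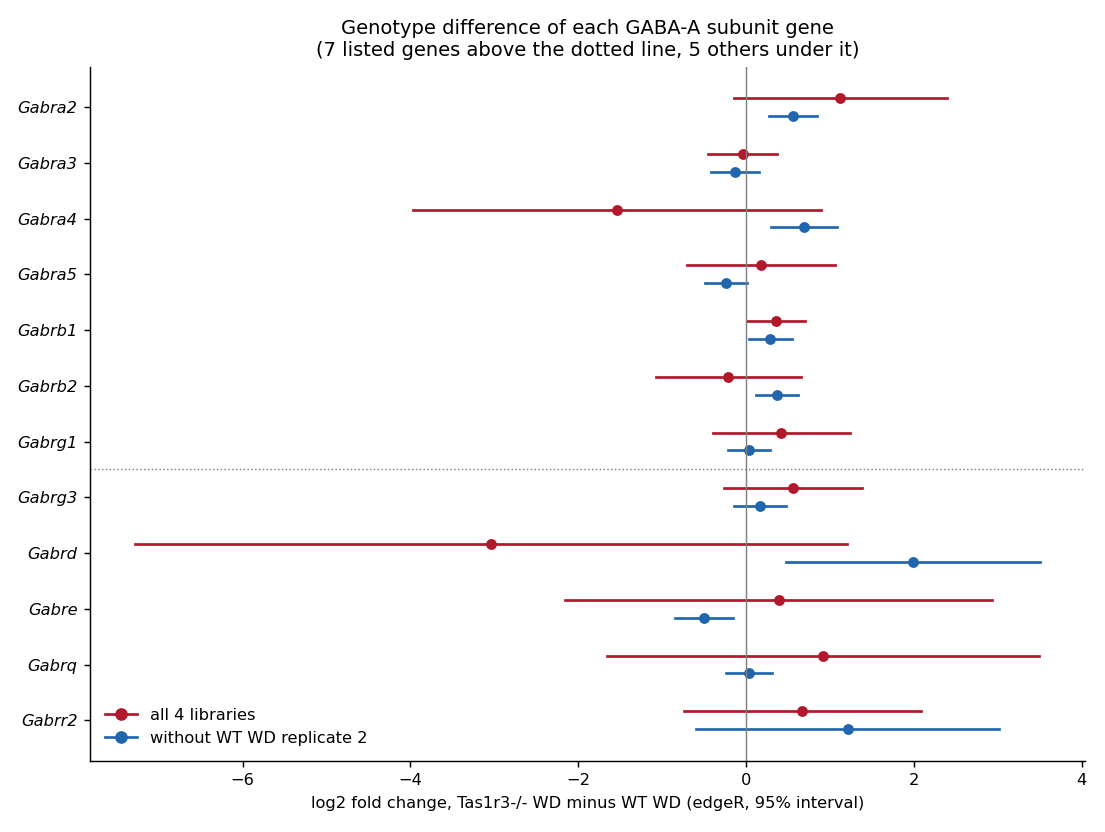
The plot gives the log2 fold change of Tas1r3-/- WD over WT WD with its 95% interval from edgeR for the 7 listed genes and the 5 other subunit genes, with all 4 libraries and without WT WD replicate 2. For Gabra4 the estimate moves from -1.54 to 0.69 between these fits, whereas for Gabrb1 it is 0.36 and 0.29.

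The spread between replicates was uneven between the genotypes. On log2 levels with a prior count of 2, the WT WD replicates differed at least 2-fold for 2 of the 7 genes, Gabra2 and Gabra4, against 10.6% of all genes. Gabra5 was at the edge, just under 2-fold on this scale and just over it in CPM (89.5 and 44.7). The log2 level of replicate 2 less that of replicate 1 was -1.49 for Gabra2, 3.05 for Gabra4, -0.998 for Gabra5, 0.98 for Gabrb2 and -0.91 for Gabrg1 in WT WD. The Tas1r3-/- WD replicates differed at least 2-fold for 0 of the 7, against 2.36% of all genes, and the same differences ran from -0.09 for Gabrb1 to 0.26 for Gabra3, although only replicate 1 carried the pituitary markers. The root mean square log2 difference over the 7 genes was 1.43 for the WT pair and 0.179 for the knockout pair, and over all genes it was 0.759 and 0.373. WT WD replicate 1 differed by 0.368 and 0.430 from the Tas1r3-/- WD libraries over the 7 genes, which is less than it differed from its own replicate. WT WD replicate 2 lay outside the range of the other 3 libraries for 6 of the 7 genes, against 68.5% of all genes.

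The direction of that departure differed between neighbouring genes. On chromosome 5, Gabrg1 was 1.91 times lower, Gabra2 3.71 times lower and Gabrb1 1.27 times lower in WT WD replicate 2 than in the mean of the other 3 libraries, while Gabra4, between Gabra2 and Gabrb1, was 5.94 times higher. On chromosome 7, Gabra5 was 1.80 times lower, and its neighbour Gabrg3 was 2.06 times lower. On chromosome 11, Gabrb2 was 1.66 times higher. On chromosome X, Gabra3 was within the range of the others, whereas Gabrq and Gabre, theta and epsilon subunits typical of the hypothalamus and of monoamine nuclei, were 11.4 and 9.56 times lower.

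**Figure D3:**
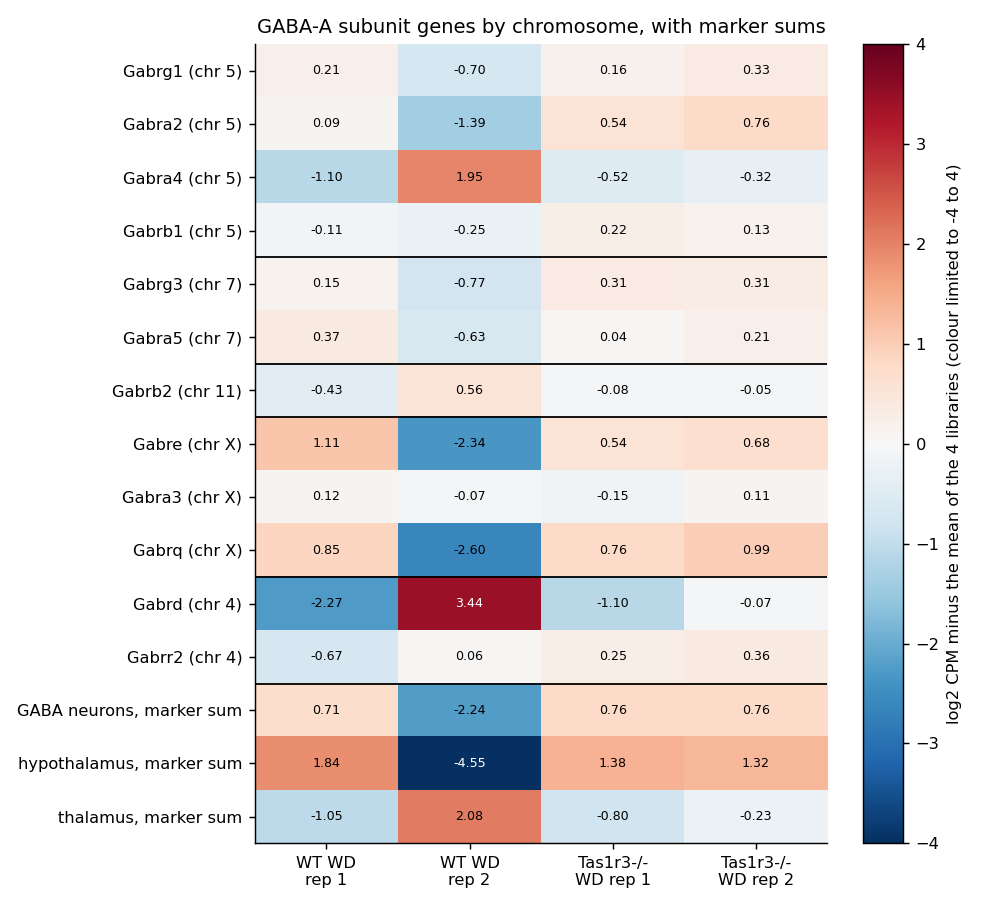
The heat map shows, for 12 GABA-A subunit genes grouped by chromosome and for 3 sums of marker genes, the log2 CPM in each library less the mean of the 4 libraries. In WT WD replicate 2, Gabrd (3.44) and Gabra4 (1.95) are high with the thalamic marker sum (2.08), and Gabrq (-2.60), Gabre (-2.34) and Gabra2 (-1.39) are low with the marker sums of GABA neurons (-2.24) and of the hypothalamus (-4.55).

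Levels of different genes were compared only after division by transcript length, as CPM per kilobase. The mean over the 4 libraries was 33.6 for Gabra3, 24.9 for Gabrb2, 21.1 for Gabra5, 17.2 for Gabra2, 16.2 for Gabrg1, 16.1 for Gabra4 and 12.8 CPM per kilobase for Gabrb1. Gabra3 ranged from 30.1 to 36.3 CPM per kilobase and was above Gabra5, Gabra2, Gabrg1 and Gabrb1 in every library on this scale. Gabrb2 ranged from 17.9 to 35.5 CPM per kilobase and was above Gabra3 in WT WD replicate 2 alone. Neighbours lower in this order overlapped: Gabra5 ranged from 13.2 to 26.4, Gabra2 from 5.68 to 25.4, Gabrg1 from 9.63 to 19.6 and Gabrb1 from 10.6 to 14.8 CPM per kilobase. Gabra4 was lowest of the 7 in 3 libraries (5.11 to 8.85 CPM per kilobase) and highest in WT WD replicate 2 (42.9 CPM per kilobase). The reference transcript of Gabrb1 is 13763 bases long, and the order of the genes depends on the length used. By coding length Gabrb1 held 18.4% and 15.5% of the summed level of the 12 genes in WT, then 21.2% and 18.4% in the knockout, and by the whole transcript it held 6.02% and 5.22%, then 7.56% and 6.27%. By coding length Gabra3 held 14.6% and 11.9% in WT, then 11.1% and 12.3% in the knockout, so that Gabrb1 was above it in every library. Gabrb2 was above Gabra3 in every library by coding length as well, at 15.5% and 28.7% in WT, then 18.2% and 17.1% in the knockout, and in WT WD replicate 2 it was above Gabra4 (16.4%). By the same length Gabra2 was above Gabra3 in both Tas1r3-/- WD libraries (15.03% and 16.2%).

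The subunit make-up was taken as the share of each gene in the summed CPM per kilobase of the 12 genes described. For Gabra2, Gabra4, Gabra5, Gabrb2 and Gabrg1, WT WD replicate 2 was furthest from the rest. For the same genes WT WD replicate 1 also lay outside the range of the Tas1r3-/- WD libraries, by less. Gabra2 held 8.2% and 2.79% in the WT WD libraries, against 11.1% and 11.5% in Tas1r3-/- WD, so that the groups did not overlap. Gabra4 held 2.62% and 21.0% in the WT WD libraries, against 3.93% and 3.998% in Tas1r3-/- WD, and Gabrb2 held 9.18% and 17.4%, against 11.7% and 10.5%. Both of these genes held their largest share in WT WD replicate 2. Gabra3 held 18.6% and 15.6% in the WT WD libraries, against 15.4% and 16.3% in Tas1r3-/- WD. Gabra5 held 13.5% and 6.46%, against 10.8% and 10.7%, and Gabrg1 held 9.28% and 4.73%, against 8.93% and 8.86%. Gabra5 and Gabrg1 held their smallest share in WT WD replicate 2 and their largest in WT WD replicate 1.

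Outside the listed genes, the delta subunit Gabrd held 0.364% and 22.6% in the WT WD libraries, against 0.933% and 1.76% in Tas1r3-/- WD, and the theta subunit Gabrq held 24.8% and 2.11%, against 23.3% and 24.2%. WT WD replicate 2 held more delta and less theta than any other library, also by coding length, by which Gabrq held 9.22%, 0.766%, 7.97% and 8.63% in the same order.

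Among the 4 listed alpha genes alone, the summed level per length was split differently in that library. Gabra2 held 19.1% and 6.07% of it in the WT WD libraries, against 27.0% and 27.0% in Tas1r3-/- WD. Gabra4 held 6.10% and 45.8% in the WT WD libraries, against 9.54% and 9.42% in Tas1r3-/- WD. The lowest share of Gabra2 and the highest share of Gabra4 were in the same library. The ratio of Gabra4 to Gabra2 per length was 0.320 and 7.55 in the WT WD libraries, against 0.354 and 0.348 in Tas1r3-/- WD. The ratio of Gabrb2 to Gabrb1 per length was 1.53 and 3.34 in the WT WD libraries, against 1.55 and 1.68 in Tas1r3-/- WD. For both ratios the library that stood apart differed from the other 3 by more than these did among themselves.

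**Figure D4:**
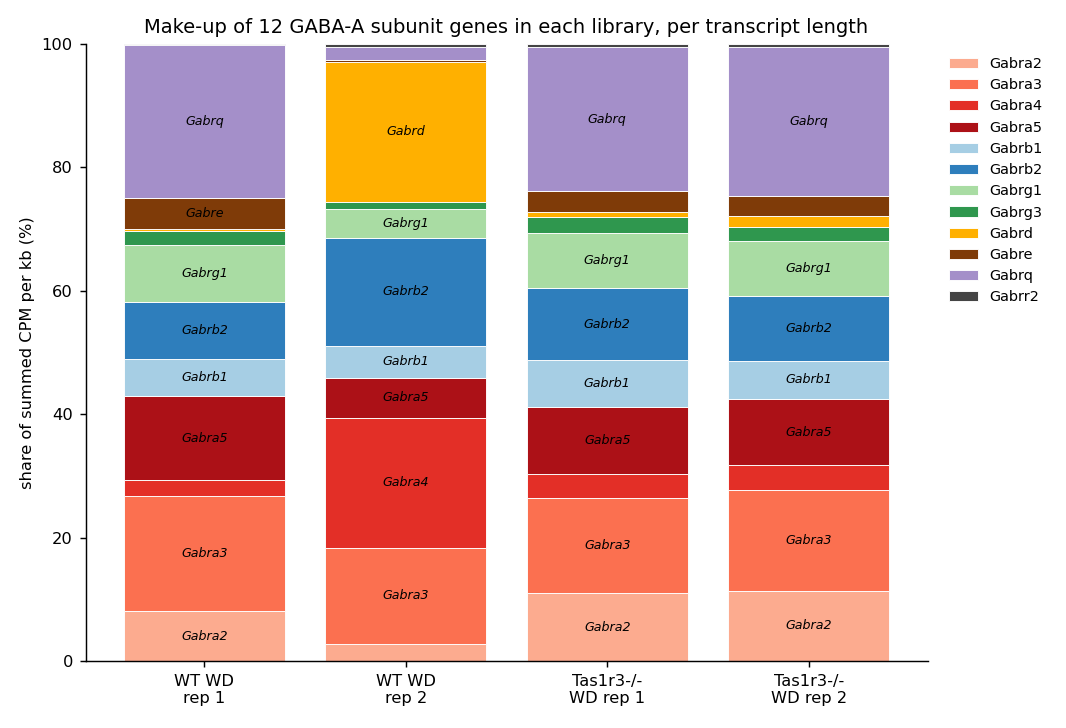
Stacked bars show the share of each of the 12 GABA-A subunit genes described in the summed CPM per kilobase (percent) of each library, with alpha genes in red, beta genes in blue and gamma genes in green. Gabrd (22.6%) and Gabra4 (21.0%) take wide bands in WT WD replicate 2 and narrow ones in the other 3 libraries, where Gabrq holds 23.3% to 24.8%.

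The summed level of the subunits differed less between libraries than the split among them. The 7 genes together were at 730 and 841 CPM in the WT WD libraries, against 813 and 873 CPM in Tas1r3-/- WD. The 12 subunit genes described were at 195 and 204 CPM per kilobase in the WT WD libraries, against 196 and 221 CPM per kilobase in Tas1r3-/- WD.

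For Gabra4 and Gabra2, the counting error of a share was narrower than the difference between WT WD replicate 2 and the other libraries. As a share of the estimated counts of the 12 genes, with no division by length, Gabra4 was 2.32% (95% Wilson interval 1.95 to 2.75) and 18.6% (17.6 to 19.6) in the WT WD libraries, against 3.23% (2.82 to 3.70) and 3.43% (3.01 to 3.92) in Tas1r3-/- WD. Gabra2 was 10.9% (10.1 to 11.8) and 3.71% (3.26 to 4.22) in the WT WD libraries, against 13.8% (12.9 to 14.6) and 14.8% (14.0 to 15.7) in Tas1r3-/- WD. For other genes some intervals overlapped. Gabrg1 was 9.32% (8.57 to 10.1) in WT WD replicate 1, against 8.35% (7.69 to 9.06) and 8.64% (7.97 to 9.37) in Tas1r3-/- WD. Gabra3 was 12.1% (11.3 to 12.9) in WT WD replicate 2, against 12.2% (11.4 to 13.1) in Tas1r3-/- WD replicate 2. All these intervals cover counting error only and treat rounded estimated counts as reads.

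Among the other 5 subunit genes, 0 passed both thresholds and 0 had an unadjusted p under 0.05 with edgeR and all 4 libraries. Their median log2 fold change was 0.56 with all 4 libraries and 0.17 without WT WD replicate 2. With all 4 libraries the log2 fold change was 0.39 for Gabre, 0.67 for Gabrr2, 0.56 for Gabrg3 and 0.91 for Gabrq. Without WT WD replicate 2 it turned to -0.50 for Gabre, and was 1.21 for Gabrr2, 0.17 for Gabrg3 and 0.03 for Gabrq. Counts of Gabrr2 were low, at 4.84 and 10.0 estimated counts in WT WD, against 12.0 and 12.1 in Tas1r3-/- WD. Gabrd had only 8 estimated counts in WT WD replicate 1. Gabrd, which partners Gabra4, was at 1.37 and 89.3 CPM in the WT WD libraries, against 3.53 and 7.54 CPM in Tas1r3-/- WD. The fold change of Gabrd was -3.04 on the log2 scale (SE 1.64, adjusted p = 0.756, edgeR), and it turned to 1.99 without WT WD replicate 2 (SE 0.68, adjusted p = 0.261, edgeR). Gabrd, like Gabra4, was in the same order over the libraries as the thalamic marker sum. It lies on chromosome 4 (155469407 to 155482872), near the knocked-out Tas1r3 (155943725 to 155947819). The part of DNA around the knockout allele in the difference of Gabrd was not tested. Gabrq was at 109 and 9.72 CPM in the WT WD libraries, against 103 and 121 CPM in Tas1r3-/- WD.

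The wider GABA system was described from 5 gene lists, and 0 of their genes passed both thresholds with edgeR. Those with an unadjusted p under 0.05 were 2 genes of GABA-B receptors, 1 in each direction, and 1 gene of chloride transport, that is 3 of the 41 genes tested, against 5.38% of all genes. For 8 genes of GABA synthesis, packing and uptake the median log2 fold change was 0.35, and it was 0.07 without WT WD replicate 2, the library that was lowest for 7 of the 8, against 34.6% of all genes. For 20 genes of the inhibitory postsynapse and receptor trafficking it was 0.05 and 0.03. Hap1, a trafficking adaptor that binds beta subunits, was at 1616 and 421 CPM in the WT WD libraries, against 1293 and 1266 CPM in Tas1r3-/- WD. For 4 chloride transport genes the medians were 0.13 and 0.07, with Slc12a5, the neuronal chloride extruder, at 798 and 620 CPM in the WT WD libraries, against 803 and 771 CPM in Tas1r3-/- WD. For 5 genes of GABA-B receptors, the metabotropic receptors for GABA, the medians were -0.60 and 0.01. Gabbr2 was at 298 and 944 CPM in the WT WD libraries, against 294 and 351 CPM in Tas1r3-/- WD, so that WT WD replicate 2 was again the library furthest from the rest. For 4 glycine receptor genes the medians were 0.19 and -0.04.

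The genes closest to the mean profile of the 7 subunit genes were sought among 8601 genes with a mean of at least 20 CPM, by the root mean square difference of centred log2 CPM over the 4 libraries. They were Nrip1 (0.00820), Safb, Tnfaip1, Cdr2l and Borcs6. This mean profile was nearly flat, as in Nrip1 at 23.5 to 28.8 CPM, and profiles of single members were compared as well, a choice made after the data were seen. Closest to Gabra2 were Kcnk9 (0.0869), N4bp2, Neto1, Slc5a3 and Zdbf2, and closest to Gabra4 were Prkch (0.0639), Slitrk6, Necab1, Nrn1 and Kitl. Genes nearest to Gabra2 were lowest in WT WD replicate 2, and those nearest to Gabra4 were highest there. This follows from choosing them by likeness over the same 4 libraries and is no separate observation.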

How the data were processed

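Hypothalamic RNA of male mice was sequenced in 4 libraries (2 WT WD, 2 Tas1r3-/- WD). Per the study's methods and the submitters' processing notes, the authors used Partek Flow with STAR as aligner and mm39 as genome, and deposited an estimated count for each RefSeq transcript in each library and did not normalize it. Of the values, 13.0% were whole numbers, and each of the 30930 transcripts listed had a total of at least 10. The tables of single samples equalled the columns of the joint table and were not used.

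Transcripts were summed to 16339 genes by accession (RefSeq table of GRCm38.p6, names only), and 39 transcripts with no gene (0.347% to 2.49% of counts) were left out. Sums were rounded, filtered with filterByExpr and tested for all 14344 genes together with edgeR 4.0.16 in R 4.3.3 (TMM, quasi-likelihood test, Benjamini-Hochberg). The study's methods name DESeq2 (1.42.0 here), which was an alternative, as was limma 3.58.1. Genes were called at a fold change of 1.5 or more with an adjusted p under 0.05. On data simulated for this comparison (14391 genes tested, with the common dispersion of these libraries), edgeR recovered 153 of 200 changed genes with 6 false calls. Every gene was given the same dispersion, no library was set apart, and the planted changes exceeded the fold change threshold. The simulation therefore does not give the power of the test in these data.

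Levels are CPM on TMM-scaled library sizes over the tested genes (5719910 to 6164634 counts before scaling). Lengths, coordinates and coding sequences came from canonical GENCODE M39 transcripts on GRCm39, since lengths of the RefSeq transcripts as counted were not used here. Log2 levels in profiles and between replicates used a prior count of 2. The study describes more mice per group for this assay than the 2 libraries per group analysed here. Nothing in the labels says that libraries came from separate mice, so that p-values measure only the spread between these libraries, which may be technical.

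All 7 members, the 5 other subunit genes described, and the 3 genes of highest mean CPM of each related list could be named. The members, lists and markers were chosen with earlier results of these data known. Alternatives were RLE and total-count scaling, DESeq2, limma-trend, other filters, a replicate block and leaving out each library. Shares were also taken with other lengths, with no length and over the 7 members alone. Some genes of the family are not reported here and enter no share of the make-up.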

Additional observations from a re-analysis of the deposited data

How the results depend on the processing

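With all 4 libraries, each of the 49 alternative log2 fold changes of the 7 subunit genes (RLE and total-count scaling, DESeq2, limma-trend, both filters and the replicate block) kept its direction and its call, at adjusted p-values of 0.733 to 1.00. The fold change of Gabra4 was over 1.5 times smaller by limma-trend (-0.84) and with the replicate block (-0.91) than by edgeR (-1.54). DESeq2 called 9 genes in all, against 0 with edgeR, and 0 of the 7 subunit genes. At an unadjusted p under 0.05, edgeR gave 772 genes and DESeq2 gave 407, each with 1 of the 7, and limma-trend gave 779 with 2 of the 7. Leaving out 1 library at a time gave 0 to 2123 genes called in all, 0 to 5 of the subunit genes, and a median log2 fold change of 0.083 to 0.44 over them. The log2 fold change then ran from 0.56 to 2.06 for Gabra2, from -0.19 to 0.083 for Gabra3, from -2.37 to 0.69 for Gabra4, from -0.24 to 0.77 for Gabra5, from 0.29 to 0.44 for Gabrb1, from -0.62 to 0.37 for Gabrb2 and from 0.03 to 0.95 for Gabrg1. The sign turned without WT WD replicate 2 for Gabra4 (0.69), Gabra5 (-0.24) and Gabrb2 (0.37). For Gabra3 it turned to 0.060 without WT WD replicate 1, and to 0.083 where Tas1r3-/- WD replicate 1 was left out. The cause was not tested. Without WT WD replicate 2, 32 genes were called in all.

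Replicate numbers were shared between the genotypes, but the replicate differences correlated at only 0.082 across genes. With the replicate block, 0 genes and 0 of the subunit genes were called, the median log2 fold change was 0.25, and 667 genes (1 of the 7) had an unadjusted p under 0.05. Of 56 shares under other lengths, with no length or over the 7 listed genes alone, 38 moved by more than 1 SD between replicates. Taking the 7 genes alone raises every share, because the total is smaller. Tested without summing to genes, an alternative chosen after seeing the data, 0 of 25699 transcripts were called. Each of the 7 genes had at least 125 estimated counts in every library.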
